A study of Homo sapiens and Homo sapiens
Mus musculus and Mus musculus with 200 samples.

Results

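The elements described here were stretches of open chromatin in human cranial neural crest cells (hCNCC) whose H3K27ac was higher 24 h after TWIST1 was degraded. At 3 h it had risen by less than a set limit or had fallen. They were taken from the authors' table of H3K27ac read counts in the line TWIST1FV, which covers 213151 elements. Counts were divided by the library total to give CPM (counts scaled to a common total of 1e6), and the level of an element at a time was the mean over 2 replicates of log2(CPM + 1). An element was a member when its mean CPM at 24 h was at least 4, its level at 3 h was less than 0.4 above that at 0 h, and its level at 24 h was at least 1 above that at 0 h. Of the 213151 elements, 39606 reached the CPM minimum and 980 met all conditions. The members were thus chosen by the H3K27ac values of the 6 TWIST1FV libraries, so these values in that line are a description with no test, and tests were made only in the other 5 lines.

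TWIST1 is a basic helix-loop-helix transcription factor that binds short sequences called E-boxes, and it is needed for the mesenchyme that cranial neural crest forms in the face. H3K27ac is acetylation of lysine 27 of histone H3, a mark of active enhancers and promoters. A protein fused to a degradation tag is removed from cells by a small molecule of the dTAG type. Homeodomain factors of the ALX, PRRX and MSX families and the AP2 factor TFAP2A are, like TWIST1, regulators of cranial neural crest and facial development.

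The H3K27ac libraries came from hCNCC derived from the H9 embryonic stem cell line and treated with 500 nM dTAGV-1 for 0, 3 or 24 h, with 2 libraries per line and time. WT cells carry no tag. TWIST1FV, ALX1FV, PRRX1FV and MSX1FNV carry the tag on the named factor, and ALX1FV ALX4- carries the ALX1 tag and lacks ALX4. By the labels, both TWIST1FV replicates came from 1 clone (c64) and both MSX1FNV replicates share their clone name, whereas the replicates of ALX1FV, ALX1FV ALX4- and PRRX1FV came from different clones. The WT and TWIST1FV libraries contain a spike-in of chromatin from mouse O9-1 cells, and those of the other 4 lines do not. Occupancy came from the authors' peak lists for TWIST1, for AP2a (the product of TFAP2A, 1 library each with a Novus and a Cell Signaling antibody in hCNCC, with no dTAGV-1 time in the labels) and for the V5 epitope of the tagged homeodomain factors, with lists from HEK293 and RS4;11 cells beside them. The p-values below measure the spread between these libraries, which in the 1-clone lines may be technical.

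Library totals over the elements ran from 5137169 to 9173063 counts in the 36 libraries and from 7163998 to 8817125 in TWIST1FV. All 16 listed crest and mesenchyme markers had an element at a start site, with a summed CPM of 1879 and 1985 in TWIST1FV at 0 h, 1972 and 2098 at 24 h, and 2031 and 2010 in WT at 0 h. Single markers moved apart within this sum. From 0 to 24 h in TWIST1FV, PDGFRA went from 227 and 237 to 178 and 163. SNAI2 went from 80.3 and 94.7 to 59.9 and 58.9, and NGFR from 40.1 and 40.3 to 92.5 and 77.6. Of 5 pluripotency markers, POU5F1 and NANOG had no element at a start site, and the summed CPM of the others was 320 and 272 at 0 h and 415 and 377 at 24 h in TWIST1FV. In WT that sum was 296 and 291, then 314 and 310, at these times. The neural markers, with 5 of 6 genes covered, summed to 34.5 and 41.7 at 0 h and 64.6 and 64 at 24 h in TWIST1FV, against 45.7 and 34, then 41.6 and 40.7, in WT, with SOX1 at 1.44 or less in every library. Of that sum TUBB3 made up 25.2 and 35.6 at 0 h and 55.0 and 57.5 at 24 h, while SOX2, PAX6 and ELAVL3 were at 4.01 or less in TWIST1FV at 0 and 24 h. Likewise EPCAM made up most of the epithelial sum below (7.38 and 6.35, then 14.9 and 15.4) and LIN28A most of the pluripotency sum (255 and 223, then 361 and 330), while L1TD1 went from 50.3 and 39.8 to 35.8 and 30.4. The epithelial markers, with 3 of 4 genes covered, summed to 8.48 and 7.71, then 17 and 18.5, against 4.85 and 7.34, then 7.11 and 5.18, in WT, with CDH1 at 1.14 or less. The glial and melanocyte markers summed to 16.1 and 18.8, then 23.2 and 21.5, in TWIST1FV. Of these SOX10 went from 2.735 and 2.38 to 7.66 and 5.58, and MITF from 6.29 and 6.24 to 1.885 and 1.99. The endoderm, mesoderm and blood lists summed to at most 22.72 each in TWIST1FV at 0 and 24 h. No member lay at the start site of any marker gene, and the part of these markers in the members' levels was not tested.

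The sequences of 6 elements that carry the main findings are given here, each reaching 110 bases to either side of its centre, on the plus strand of hg38. The first 4 are the centres of the elements with the highest and second highest gain and of a neighbouring pair beside TWIST1. The last pair is centred on the summits of strong TWIST1 peaks at a member near ROBO1 and a member at MBD5. Capitals mark E-box words of the class TWIST1 binds (CAGATG, which reads CATCTG on the other strand, as well as CAGCTG and also CATATG), homeodomain words (TAATTA or TAATTG), SOX words (ACAAAG or ACAATG) and the TFAP2 word (GCCNNNGGC), each on either strand.
SCN8A intron, chr12:51631107-51631327: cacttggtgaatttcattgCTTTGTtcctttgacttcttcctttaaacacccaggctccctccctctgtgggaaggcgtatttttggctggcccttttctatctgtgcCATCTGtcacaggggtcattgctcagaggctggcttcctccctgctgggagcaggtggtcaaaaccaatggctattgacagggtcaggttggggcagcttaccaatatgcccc
LINC01616 intron beyond KCNA4, chr11:29963142-29963362: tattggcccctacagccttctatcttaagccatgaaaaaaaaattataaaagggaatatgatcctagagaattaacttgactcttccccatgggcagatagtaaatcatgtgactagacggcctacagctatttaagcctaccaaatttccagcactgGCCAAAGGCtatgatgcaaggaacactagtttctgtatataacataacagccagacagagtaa
TWIST1, 5424 bp from its start, chr7:19111852-19112072: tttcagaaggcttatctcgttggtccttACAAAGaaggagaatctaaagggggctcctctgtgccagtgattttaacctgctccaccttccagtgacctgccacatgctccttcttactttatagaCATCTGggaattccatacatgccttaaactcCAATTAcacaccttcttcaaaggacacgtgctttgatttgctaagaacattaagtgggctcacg
TWIST1, 4903 bp from its start, chr7:19112373-19112593: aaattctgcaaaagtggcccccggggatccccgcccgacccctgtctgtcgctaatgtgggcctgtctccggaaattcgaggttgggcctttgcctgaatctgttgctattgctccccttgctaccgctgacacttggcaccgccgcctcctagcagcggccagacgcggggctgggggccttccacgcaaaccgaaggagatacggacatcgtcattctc
ROBO1 intron, TWIST1 summit, chr3:79723060-79723280: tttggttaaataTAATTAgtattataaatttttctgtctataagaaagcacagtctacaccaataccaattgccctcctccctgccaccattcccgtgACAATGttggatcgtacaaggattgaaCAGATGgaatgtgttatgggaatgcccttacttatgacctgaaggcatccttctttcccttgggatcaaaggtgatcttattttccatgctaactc
MBD5 start region, TWIST1 summit, chr2:148491063-148491283: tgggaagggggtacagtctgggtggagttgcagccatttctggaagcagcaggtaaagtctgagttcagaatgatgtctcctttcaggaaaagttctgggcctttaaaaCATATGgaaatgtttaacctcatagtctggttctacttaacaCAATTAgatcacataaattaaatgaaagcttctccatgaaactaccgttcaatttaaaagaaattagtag
The second TWIST1 element holds none of these words in the stretch shown and is richer in G and C (61.1%) than the first (44.3%). Summit windows of the same length at other strong peaks are not shown. That at the second highest TWIST1 peak on a member, near ZEB2 (chr2:145560241-145560461), holds none of these words. That at the strongest AP2a peak, near NUAK1 (chr12:106188335-106188555), holds an E-box word and no TFAP2 word.

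At 0 h the members were weak beside the elements that reached the CPM minimum, but not beside all elements. The median of the mean CPM at 0 h was 2.285 for members, 10.82 for elements at the CPM minimum and 1.091 for all elements. Per library, the members' median CPM was 2.19 and 2.38 in the 2 TWIST1FV libraries at 0 h, 2.72 and 2.94 at 3 h, and 6.60 and 7.31 at 24 h. In counts, the libraries' medians were 16 and 21 at 0 h and 56 and 55 at 24 h. In 977 of the 980 members both 24 h libraries were above both 0 h libraries, against 27.2% of all elements, an order that the rule itself favours. The gain at 24 h had a median of 1.22 on the log2(CPM + 1) scale, reached 1.5 in 170 members and 2 in 17, and was highest at 2.85. This scale understates changes of weak elements, and in bulk chromatin a mark in fewer cells and a weaker mark in each cell cannot be told apart. Only 80 members had a mean CPM of 20 or more at 24 h, and 212 had less than 5.

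In the 5 other lines the same elements stayed near one level. Library medians lay between 2.29 and 2.54 in WT at all 3 times, 2.4 and 3.01 in ALX1FV, 2.95 and 3.21 in PRRX1FV, and 3.04 and 3.52 in MSX1FNV. In ALX1FV ALX4- they lay between 3.16 and 3.63. The medians of PRRX1FV, MSX1FNV and ALX1FV ALX4- were all above those of every WT library.

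**Figure D1:**
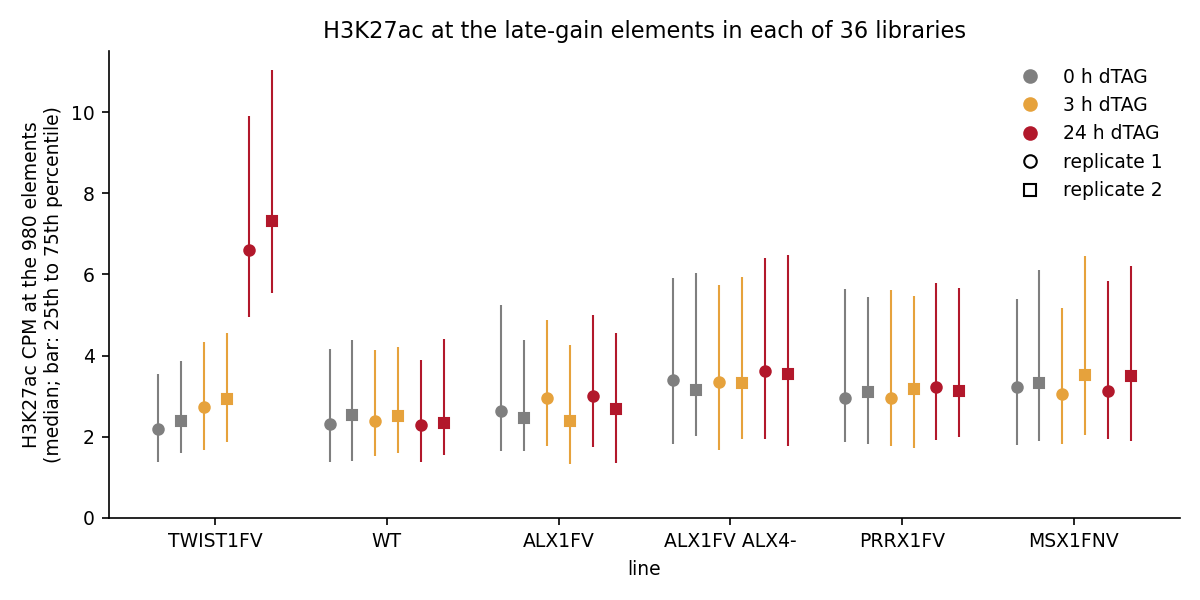
H3K27ac at the 980 members in each of the 36 libraries, by line and hours of dTAGV-1, with CPM on the vertical axis. Points are the median over members and bars run from the 25th to the 75th percentile of members; the 24 h TWIST1FV libraries, which chose the members, stand at 6.60 and 7.31, and no other library has a median above 3.63.

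The label of a gain only at a late time rests on cuts through a continuum. The median change at 3 h was 0.22, with 779 members at or above 0 and 30.7% of members at 0.3 or higher. All elements at the CPM minimum, which have no upper limit at 3 h, had a median change of 0.21. Away from start sites the medians were 0.21 for members and 0.13 for elements at the CPM minimum. Both 3 h libraries were above both 0 h libraries in 21.5% of members and 22.4% of all elements. The difference between the 2 libraries at 3 h had a median of 0.39 over members, as large as the limit of 0.4 itself. The members at 0.3 or higher lay within 0.1 of that limit, and 317 other elements with the same gain at 24 h lay within 0.1 above it. The members were 20.1% of the 4875 elements that reached the CPM minimum and gained at least 1 by 24 h, and the other 3895 had an early and lasting gain, with median CPM 2.64, 5.87 and 9.33 at 0, 3 and 24 h. At the 3 h limit, the element at chr4:37540411 (0.40) was inside and that at chr7:25831707 (0.40) outside. At the limit on the gain, chr10:132571836 (1.00) was inside and chr1:236952240 (1.00) outside, and at the CPM minimum chr16:69499673 (4.00) was inside and chr11:44783685 (4.00) outside.

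The 980 members formed 918 loci when neighbours within 10 kb were joined, of which 859 held 1 member, 56 held 2 and 3 held 3. They were spread over 23 chromosomes, and 680 had the smallest width that the elements take. By GENCODE 44, 544 members (55.5%) lay in introns, 323 (33%) between genes, 49 (5.00%) in exons and 64 (6.53%) within 1000 bp of an annotated start site. Start sites made up 43.1% of the elements that reached the CPM minimum and 12.7% of the early and lasting gains. The nearest start of a protein-coding gene was a median of 68268 bp away, against 39259 bp for early and lasting gains and 8216 bp for all elements at the CPM minimum. Away from start sites these distances were 71506 bp for 916 members and 38898 bp for 22555 elements at the CPM minimum. Median GC content was 43.5% for these members and 47.8% for these other elements. The members were therefore mostly far from start sites and rich in A and T, and distal elements serve as the reference below.

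The gene nearest to a member is only a neighbour, and no expression was measured. The members had 756 protein-coding genes as nearest gene, of which 601 had 1 member, 117 had 2 and 38 had 3 or more. FLRT2, a membrane protein of cell adhesion and repulsion, and ROBO1, a receptor for the guidance cue Slit, had 8 each. TWIST1 and NR2F1, a nuclear receptor of neural crest, had 6 each. DPH6, SOX6 (a SOX transcription factor) and DACH1 (a transcriptional cofactor) had 5 each, and CITED2 (a modulator of CBP/p300), NUDT12 and GRAMD2B had 4 each. Of the elements at the CPM minimum, 53 had ROBO1 as nearest gene, 68 had NR2F1, 56 had SOX6, 30 had GRAMD2B, 28 had CITED2, 26 had TWIST1, 22 had FLRT2, 21 had DACH1, 19 had NUDT12 and 11 had DPH6.

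Genes of axon guidance and cell adhesion were neighbours of 39 members, at 19 of the 38 genes of the list. That was 3.98% of members, against 1.32% of elements at the CPM minimum, 1.90% of early and lasting gains and 1.41% of all elements, and away from start sites it was 4.04% against 1.97%. Neural crest specifier genes were neighbours of 25 members (2.55%, against 1.16%, 1.93% and 0.625%), at 11 of 22 genes, and away from start sites 2.4% against 1.65%. Face and limb patterning genes were neighbours of 22 members (2.24%, against 0.912%, 1.08% and 0.707%), at 9 of 40 genes, and away from start sites 2.07% against 1.35%. The 6 members near TWIST1 count in both lists. FGF, EGF and PDGF signalling had 14 members at 11 of 39 genes, or 1.43% against 0.823% of elements at the CPM minimum and 1.41% of early gains. The other 11 lists had between 1 and 6 members each, among them BMP and TGF-beta, WNT, extracellular matrix and epithelial-mesenchymal transition with 6 each and neuronal and contractile genes with 1 each. These are counts over lists written with earlier results of these data known, and no test was made of them.

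The highest gain was at chr12:51630967-51631467 in an intron of SCN8A, which encodes a voltage-gated sodium channel. Its CPM was 1.91 and 0.227 at 0 h, 1.40 and 1.34 at 3 h, and 13.2 and 12.1 at 24 h, a gain of 2.85, and in WT at 0 h it was 0.462 and 0.282. The 24 h libraries of TWIST1FV were far above all others of that line, and no TWIST1 peak of the WT reference lists lay on it. The element at chr11:29963002-29963502 lies in an intron of the non-coding LINC01616, 53528 bp downstream of the start of KCNA4, a voltage-gated potassium channel gene. Its CPM was 2.46 and 1.81, then 2.79 and 2.41, then 17.9 and 19.9, a gain of 2.67. A second member starting at chr11:29963725 had 2.73 and 2.27, then 2.79 and 4.54, then 17.3 and 21.3 (2.53), and carried a weak TWIST1 peak (-log10 q 4.72 and 4.18). The 2 neighbours reached a like level at 24 h, and at both the 3 h libraries lay well below the 24 h libraries.

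Next in size came elements near SLC1A3 and LSAMP. An element starting at chr5:36590481, 5252 bp upstream of the glutamate transporter gene SLC1A3, had 1.64 and 0.907 CPM at 0 h, 2.51 and 1.07 at 3 h, and 11.3 and 9.83 at 24 h (gain 2.36). An element in an intron of LSAMP, a neuronal adhesion gene, starting at chr3:116104094, had 2.73 and 2.27, then 2.79 and 3.88, then 12.0 and 19.9 (2.24). The remaining 5 of the 10 highest gains, from 2.11 to 2.21, were near MAP3K7 (a kinase of TGF-beta signalling), KCNJ16 (a potassium channel), GRIK2 (a glutamate receptor), ZPLD1 and PPP2R3A (a phosphatase subunit). Of all 980 members, 1 had a gene of the neuronal list as its nearest gene.

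At the TWIST1 locus 6 elements were members, while the 3 elements at the TWIST1 start itself were not. The CPM summed over these 3 was 61.8 and 76.3 at 0 h, 78.7 and 98.4 at 3 h, and 102.9 and 129 at 24 h. At chr7:19111712-19112212, 5424 bp downstream of the TWIST1 start, CPM was 15.2 and 17.7 at 0 h, 14.4 and 18.6 at 3 h, and 45.6 and 63.4 at 24 h (gain 1.66). At chr7:19112233-19112733, 4903 bp downstream, it was 20.4 and 25.9, then 21.6 and 32.2, then 60.1 and 86.5 (1.61). Both lie within 1000 bp of the start of the lncRNA ENSG00000232821. The 24 h libraries were above all earlier ones at both. The first had no TWIST1, AP2a or V5 peak, and the second had an AP2a peak of the Novus list (-log10 q 7.63). Another member, chr7:19108347-19109270, was at 53.1 and 60.0, then 60.4 and 81.7, then 95.4 and 141.1 (1.03) and carried TWIST1 peaks (25.6 and 10.3). The most distant described member, starting at chr7:18952787 in an intron of HDAC9, a histone deacetylase gene, had 2.19 and 2.72, then 2.51 and 3.48, then 10.0 and 10.6 (1.72).

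**Figure D2:**
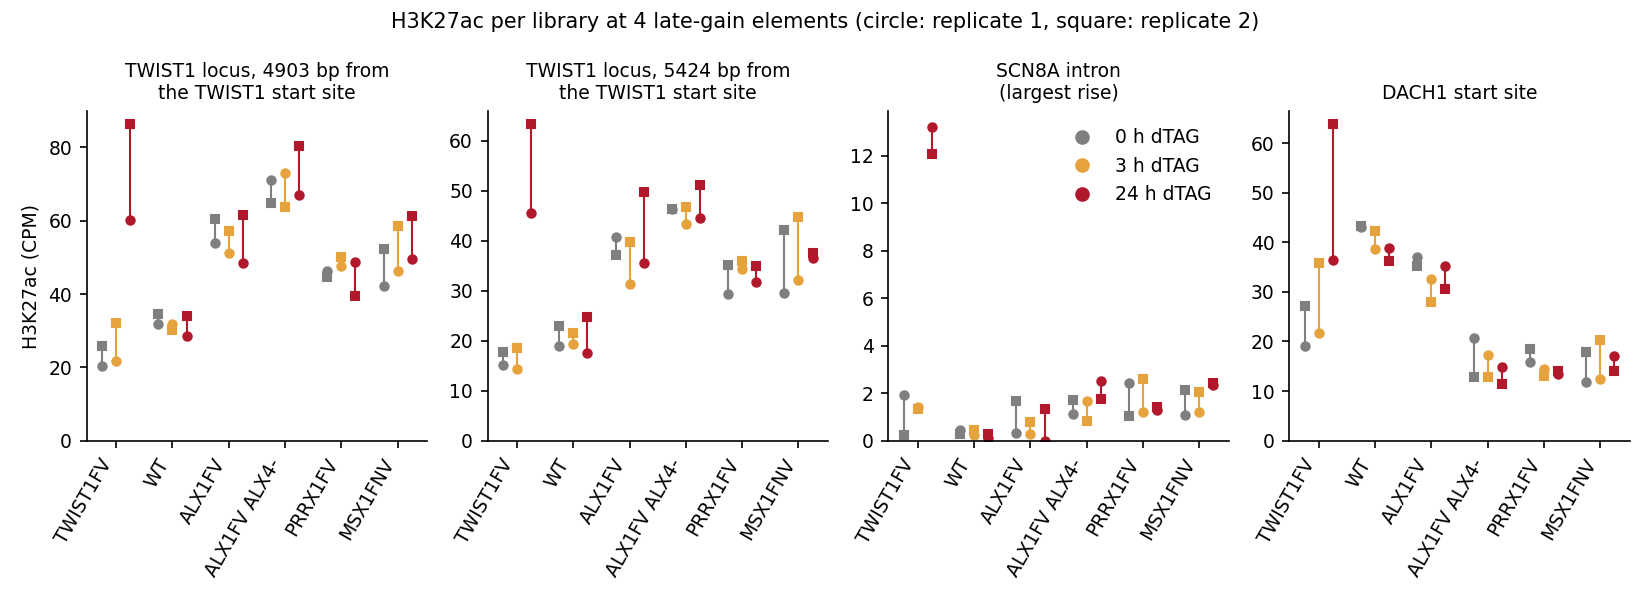
CPM of H3K27ac in each library at 4 members, the elements 4903 and 5424 bp from the TWIST1 start, the SCN8A intron element and the DACH1 start-site element, in 6 lines at 0, 3 and 24 h; each point is 1 library. In TWIST1FV all 4 are highest at 24 h, while at 0 h the TWIST1 elements are higher in ALX1FV ALX4- than in WT and the DACH1 element is lower.

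Members near FLRT2, which is outside the counted list of guidance and adhesion genes, and near genes of that list had a wide range of levels. Near FLRT2 all 8 lay between genes, and 3 lay within chr14:86401986-86405429. The first of these, chr14:86401986-86402739, had 9.85 and 7.71 CPM at 0 h, 9.91 and 6.95 at 3 h, and 22 and 19.7 at 24 h. That with the largest gain of all 8 (1.5), starting at chr14:86404929, had 3.01 and 2.04, then 3.07 and 3.74, then 8.95 and 8.77, and carried TWIST1 peaks (39.3 and 29.3). The first was thus the stronger element at every time and the second the weaker.

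Near ROBO1, the intronic element chr3:79722637-79723452, 44546 bp downstream of the nearest start, had 6.84 and 8.85 CPM at 0 h, 9.77 and 11.2 at 3 h, and 17 and 33 at 24 h. It had strong TWIST1 peaks (84.1 and 144.5) and AP2a peaks (19.8 and 47.2), and the sequence at its TWIST1 summit, shown above, holds a homeodomain, a SOX and an E-box word. Near EPHA7, an ephrin receptor gene, the element starting at chr6:92147797 had 3.56 and 3.18, then 3.35 and 5.35, then 13.1 and 11.7. An element starting at chr4:95318430 between BMPR1B, a BMP receptor gene, and UNC5C, a netrin receptor gene, had 12.6 and 9.30, then 12.3 and 14.7, then 36.6 and 36. In each of these 3 the lowest 24 h library was above the highest 0 h library, as in 977 of the 980 members, an order that the rule favours.

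Among members near transcription factor genes, the SOX6 element starting at chr11:16177750 had 4.38 and 6.12 CPM at 0 h, 5.58 and 8.82 at 3 h, and 15.3 and 18.2 at 24 h. At the DACH1 start, the element chr13:71865113-71866321, with AP2a peaks (20.2 and 22.1), had 19.1 and 27.2, then 21.8 and 35.8, then 36.4 and 63.8, so that 1 of its 3 h libraries came close to the lower 24 h library. The 6 members near NR2F1 lay 259431 to 821186 bp upstream of its start, and the one starting at chr5:93322461 had 7.93 and 8.62, then 10.6 and 9.63, then 17.7 and 23.6. Among the start-site members of protein-coding genes, the largest gain was at EFHD1, a calcium-binding protein gene, starting at chr2:232637905, with 0.821 and 1.59, then 0.558 and 3.74, then 4.83 and 7.71 (1.72). S100B, a glial calcium-binding protein gene, had 1.64 and 3.40, then 2.93 and 3.61, then 5.89 and 8.50 at its start.

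TWIST1 was found at few of the members before it was removed. A TWIST1 peak of both WT replicates at 0 h overlapped 128 of the 980 members (13.1%, Wilson 95% interval 11.1 to 15.3, counting error only). Among distal elements it overlapped 13.7% of members (11.6 to 16.0), 12.6% of early and lasting gains, 19.4% of all elements and 50.6% of elements at the CPM minimum. The distal late losses, elements with a CPM of at least 4 at 0 h that fell by less than 0.4 or rose at 3 h and were at least 1 lower at 24 h by the mirrored rule, had such a peak in 88.1%. Elements of a like level at 24 h (CPM 4 to 10) had one in 40.8%, against 6.48% of members in that range, but at 0 h these groups differed in level (median CPM 4.57 and 1.89). Among distal elements with GC content of 40 to 47% the shares were 53.3% and 12.0%. The members' share was thus below each of these references other than the early gains, to which it was close, and nearest to the share of all distal elements among the rest. These groups were not matched in level at 0 h, the time of the peaks. Median CPM then was 2.23 for distal members, 2.545 for early gains and 1.00 for all distal elements. It was 7.50 for distal elements at the CPM minimum and 8.30 for late losses. Within the GC band it was 7.18, against 2.135 for members.

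The other TWIST1 lists also covered few of the distal members, but the rule of overlap was not the same in all. Both replicates were required in WT and ALX1FV ALX4-, and either replicate in TWIST1FV. On a like rule, a peak in either replicate at 0 h lay on 11.0% of all members in TWIST1FV and 21.8% in WT. Single lists gave 9.29% and 6.735% in TWIST1FV and 17.2% and 17.7% in WT, where the lists were longer (59282 and 49107 peaks). WT at 3 h had a peak on 12.3% of distal members, ALX1FV ALX4- at 0 h on 11.5%, and TWIST1FV at 0 h, in either replicate, on 11.0%, where distal elements at the CPM minimum had 50.5%, 49.6% and 50.2%. In TWIST1FV after 3 h, when the lists held 835 and 739 peaks instead of 33479 and 25034, a peak lay on 2 of the 980 members. Where members had a TWIST1 peak, it was low: the median -log10 q was 11.8 on distal members, 8.13 on early and lasting gains and 53.0 on distal elements at the CPM minimum. The nearest TWIST1 peak was a median of 7982 bp away, against 239 bp for elements of like level at 24 h and 6799 bp for early and lasting gains. Peak heights are the authors' values and were used only to rank and filter within a list.

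The members with a TWIST1 peak were the stronger elements of the group. Their median CPM was 4.99, 5.33 and 13.5 at 0, 3 and 24 h, against 2.12, 2.58 and 6.50 without a peak, and the median gain was 1.22 in both. The strongest TWIST1 peaks (-log10 q 310.8 and 256.4) lay at MBD5, which encodes a methyl-CpG-binding domain protein, at chr2:148490897-148491857. CPM there was 5.20 and 4.99 at 0 h, 4.33 and 5.62 at 3 h, and 17.4 and 9.96 at 24 h. Second in height was the peak (287.1 and 257.9) at chr2:145559711-145561110, 1038654 bp upstream of ZEB2. ZEB2 encodes a transcriptional repressor that promotes epithelial-mesenchymal transition. CPM at this element was 19.4 and 16.4, then 19.1 and 15.2, then 47.6 and 38.9. The next strongest peak (230.2 and 145.9) lay at chr1:187870768-187872065, 1041819 bp from PLA2G4A, a phospholipase gene, with 49.2 and 28.1, then 42.3 and 26.2, then 87.2 and 70.3. All 3 elements thus had a strong TWIST1 peak at 0 h. Both 24 h libraries were above both 0 h libraries there, as in 977 of the 980 members, an order that the rule favours.

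AP2a peaks of either antibody lay on 113 members (11.5%, Wilson 95% interval 9.68 to 13.7), and of both antibodies on 53. Among distal elements AP2a was at 10.8% of members, 17.7% of early and lasting gains, 22.9% of late losses and 32.0% of elements at the CPM minimum, while over all distal elements it was 7.49%. The members therefore lay above all distal elements and below those at the CPM minimum. The strongest peak of the Novus list on a member (47.5, and 60.3 with the other antibody) lay near NUAK1, a kinase gene, at an element starting at chr12:106188126 with 5.61 and 5.67 CPM at 0 h, 11.4 and 4.14 at 3 h, and 16.4 and 9.57 at 24 h. An exonic element of NPR3, a clearance receptor gene for natriuretic peptides, starting at chr5:32785404 (42.6 and 37.3), was among the strongest members, with 23.2 and 37.9, then 27.8 and 42.5, then 64.1 and 92.1. Members with an AP2a peak had a median CPM of 3.43, 4.42 and 9.66. TWIST1 and AP2a peaks lay together on 35 members, and 206 (21.0%) had at least 1 of them.

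V5 peaks of the tagged homeodomain factors were on 10 members (1.02%, Wilson 95% interval 0.555 to 1.87). ALX1FV had 8 of these and ALX1FV ALX4- had 3, with overlap between them. MSX1FNV and PRRX1FV had 0, which allows a share of up to 0.306% by the rule of 3 counts of the total (the Wilson upper bound is 0.391%), but the PRRX1FV lists hold only 2 and 1 peaks and the MSX1FNV lists 50 and 278. Among distal elements V5 was at 1.09% of members, 1.12% of early and lasting gains, 1.28% of all elements and 7.49% of elements at the CPM minimum. The highest V5 peak on a member (13.4 in -log10 q, beside TWIST1 at 113.9 and 88.9) lay at the element chr1:242132044 in an intron of PLD5.

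**Figure D3:**
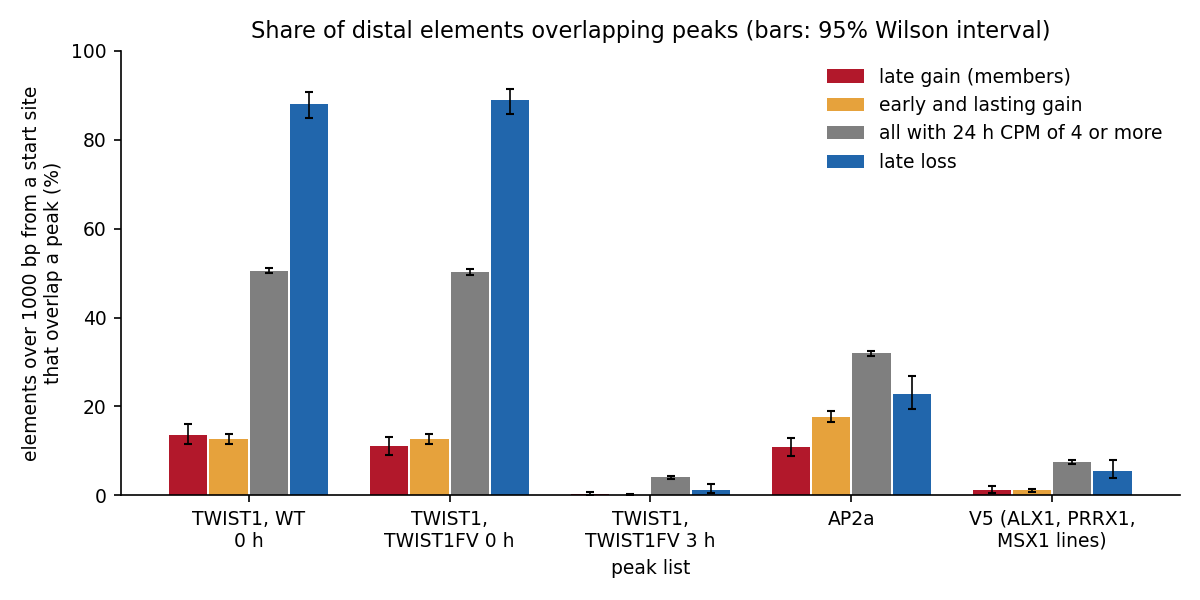
Percent of distal elements that overlap a peak of each list, for members, early and lasting gains, all elements at the CPM minimum and late losses, with Wilson 95% intervals as bars. For TWIST1 in WT at 0 h the shares are 13.7%, 12.6%, 50.6% and 88.1% in that order, and in every list shown members lie below all elements at the CPM minimum. WT bars count peaks of both replicates and TWIST1FV bars peaks of either replicate, so bars of these lines are not alike in definition.

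TWIST1 lists of other cell types were set beside the members. In HEK293, a human embryonic kidney line given TWIST1 by plasmid, TWIST1 peaks lay on 5.90% of distal members, 9.71% of all distal elements and 17.5% of those at the CPM minimum. With ALX4 added the shares were 11.2%, 11.1% and 20.4%, and in RS4;11, a lymphoblast line, 8.08%, 11.9% and 20.8%. These are single lists or unpooled replicates, and the differences were not tested.

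The word content of the central part, 150 bp to either side of the centre, was compared with distal elements at the CPM minimum, for 17 words on both strands. SOX words were in 52.1% of distal members and 38.3% of the others, homeodomain words in 28.9% and 21.0%, and TCF/LEF words (TTCAAAG or ATCAAAG) in 21.7% and 15.5%. E-boxes of the TWIST1 class were in 39.4% against 52.4%, and the E-box CAGGTG in 8.84% against 17.6%. Early and lasting gains had SOX words in 42.8%, homeodomain words in 20.9%, TCF/LEF words in 22.1%, TWIST1-class E-boxes in 42.8% and CAGGTG in 14.4%, so their shares of TCF/LEF words and TWIST1-class E-boxes were near those of members. Since members are richer in A and T, the shares were repeated within 40 to 47% GC content. There SOX words were in 51.8% of members and 44.8% of others, homeodomain words in 30.6% and 26.9%, TCF/LEF words in 23.2% and 19.4%, TWIST1-class E-boxes in 40.3% and 50.8%, and CAGGTG in 7.09% and 13.5%. The differences for SOX and homeodomain words were smaller within the GC band and kept their direction. For homeodomain words the Wilson 95% intervals of the band overlapped (26.3 to 35.2 and 25.8 to 27.9), as they did for TCF/LEF words (19.4 to 27.6 and 18.5 to 20.4).

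Other words behaved differently with base composition. The TFAP2 word was in 16.9% and 16.7% over all GC contents but in 18.3% and 9.98% within the GC band. The FOX word TAAACA was in 21.3% and 19.6% over all GC contents, and in 20.3% and 24.8% within the band, so its direction turned. A control word, GTTAAC, was in 4.37% and 3.83% over all GC contents, and in 4.89% and 4.86% within the band. Members with at least 2 SOX words made up 16.4% against 9.06%, and with at least 2 TWIST1-class E-boxes 9.50% against 18.1%. An E-box and a homeodomain word 4 bp apart, a joint site of TWIST1 and homeodomain factors, occurred in 3 of 916 distal members (0.328%) and in 0.607% of the others.

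**Figure D4:**
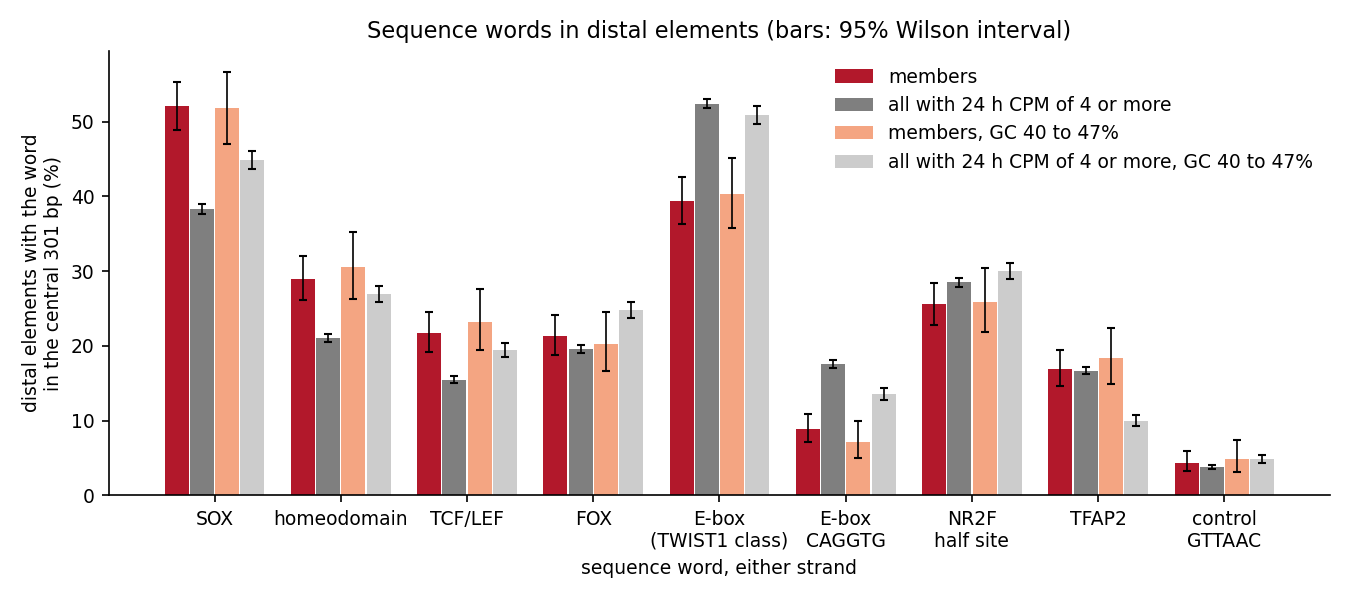
Percent of distal elements with each word within 150 bp of their centre, for members and for all elements at the CPM minimum, over all GC contents and within 40 to 47% GC. SOX words lie higher in members (52.1% against 38.3%) and TWIST1-class E-boxes lower (39.4% against 52.4%), and both keep that order within the GC band.

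Where a TWIST1 peak was present on a distal member, the window at its summit held a TWIST1-class E-box in 69 of 125 cases (55.2%, Wilson 95% interval 46.5 to 63.6), against 70.0% for distal elements at the CPM minimum, 65.7% for early gains and 72.0% for late losses. Homeodomain words were in 38.4% of these summit windows on members, against 25.9%, 30.4% and 19.4%. A word is a match of letters and does not show that a factor is bound.

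The time course in the other lines asked whether dTAGV-1, or the loss of another factor, moved the same elements. Between 900 and 932 members passed edgeR's filter on low counts in each line. With the quasi-likelihood test of edgeR at an FDR of 0.05, none was called at 24 h in WT, ALX1FV, PRRX1FV or MSX1FNV and 1 was called in ALX1FV ALX4-, where the percentages called of all tested elements were 0% in WT, 0% in ALX1FV, 0.000827% in PRRX1FV, 0.00448% in MSX1FNV and 0.0279% in ALX1FV ALX4-. At 3 h edgeR called no member in any of the 5 lines (0% of all elements in WT, ALX1FV, ALX1FV ALX4- and PRRX1FV, and 0.00179% in MSX1FNV). DESeq2 called 0 members in each of these 10 comparisons. At an unadjusted p under 0.05 from edgeR at 24 h, 27 members were higher and 18 lower in WT, 10 and 7 in ALX1FV, 38 and 20 in ALX1FV ALX4-, 22 and 21 in PRRX1FV, and 25 and 10 in MSX1FNV. At 3 h these counts were 28 and 11, 8 and 9, 16 and 25, 17 and 17, and 18 and 13. In the same order of lines, both directions together made up 4.83%, 1.88%, 6.44%, 4.66% and 3.8% of members at 24 h. Of all tested elements they made up 3.58%, 1.84%, 6.34%, 4.23% and 3.57%. At 3 h the shares of members were 4.18%, 1.88%, 4.56%, 3.69% and 3.37%. Those of all tested elements were 3.42%, 1.61%, 4.57%, 3.91% and 2.85%. With the clones of ALX1FV paired as a replicate block, its counts at the unadjusted p were 21 higher and 28 lower at 24 h and 20 and 24 at 3 h, with 0 members called at the FDR. Over all 110426 elements tested in ALX1FV, this block moved the count at the unadjusted p from 2032 to 5897 at 24 h. At 3 h it moved from 1780 to 4730. Under the clone block in ALX1FV ALX4-, 20 of all tested elements were higher and 170 lower at 24 h instead of 1 and 33, and 1 member was called. The median log2 fold change of members at 24 h was 0.02 in WT, 0.03 in ALX1FV, 0.08 in ALX1FV ALX4-, 0.02 in PRRX1FV and 0.05 in MSX1FNV.

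By plain order of the libraries, both 24 h libraries were above both 0 h libraries in 141 members in WT (15.1%, against 14.7% of all elements tested), 15.3% of members in ALX1FV (against 14.8%), 170 in PRRX1FV (18.4% against 16.2%) and 144 in MSX1FNV (15.7% against 15.4%). In ALX1FV ALX4- it was 224 (24.9% against 18.7%). These shares were near the background in WT, ALX1FV and MSX1FNV.

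The called member in ALX1FV ALX4- was the PLD5 element at chr1:242132044. Its CPM was 8.29 and 9.62 at 0 h, 3.92 and 2.62 at 3 h, and 1.81 and 2.36 at 24 h, and it fell by 2.11 on the log2 scale (SE 0.38, edgeR adjusted p = 0.0173), the opposite of its direction in TWIST1FV. The call was lost with DESeq2, without a filter on low counts and without either 24 h library, with the log2 change between -2.30 and -1.93. In MSX1FNV the ZEB2-side element chr2:145559711-145561110 had 9.35 and 6.31 CPM at 0 h, 17.6 and 12.0 at 3 h, and 26.5 and 19.4 at 24 h, a log2 change of 1.57 (SE 0.28, edgeR adjusted p = 0.0582). It was called without MSX1FNV 0 h replicate 1.

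At 0 h, before any degradation, the edited lines were compared with WT in a fit of the 30 libraries outside TWIST1FV, in which 973 members were tested. The 4 contrasts against WT share the WT libraries, so their values stand side by side and not as repeats. In ALX1FV ALX4-, 131 members were higher (13.5%, against 3.61% of all tested elements) and 56 lower (5.76%, against 5.56%) by edgeR. In PRRX1FV 46 were higher (4.73%, against 0.983%) and 14 lower (1.44%, against 2.19%). In MSX1FNV 54 were higher (5.55%, against 1.2%) and 16 lower (1.64%, against 2.03%). In ALX1FV 9 were higher (0.925%, against 0.306%) and 2 lower (0.206%, against 0.251%). Distal elements at the CPM minimum serve as a further reference. Without a TWIST1 peak, 13.8% of members and 14.3% of these elements were higher in ALX1FV ALX4-, and 4.85% and 4.84% in PRRX1FV. In MSX1FNV the shares were 5.56% and 6.11%, and in ALX1FV 1.07% and 1.33%. With a peak they were, in the same order of lines, 10.9% and 6.39%, 3.91% and 2.27%, 5.47% and 3.1%, and 0% and 0.885%. The median log2 difference of members was 0.36, 0.29, 0.33 and 0.08 in that order, where the median of all tested elements was 0.04, 0.03, 0.01 and 0.00. Single libraries weighed on the counts. Members called in either direction dropped to 96 in ALX1FV ALX4- without its 0 h replicate 1 and 103 without WT 0 h replicate 1. In PRRX1FV they dropped to 24 and 22 without its own 0 h replicate 1 or 2 and to 19 and 29 without WT 0 h replicate 1 or 2. In MSX1FNV they dropped to 13 without its 0 h replicate 2 and to 28 without either WT 0 h library, and in ALX1FV to 4 and 2 without WT 0 h replicate 1 or 2.

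WT libraries carry the mouse spike-in and the edited lines compared with it do not, so the line and the library preparation cannot be told apart in these 4 contrasts. ALX1FV ALX4- and ALX1FV share that feature, and there 30 members were higher (3.08%, against 0.924%) and 17 lower (1.75%, against 2.47%) by edgeR, with a median of 0.24 against 0.03 for all elements. Without a TWIST1 peak, 2.96% of members and 3.65% of distal elements at the CPM minimum were higher. With a peak these shares were 3.91% and 2.16%. Higher calls outnumbered lower ones under each of 10 alternatives for ALX1FV ALX4-, PRRX1FV and MSX1FNV against WT. For ALX1FV ALX4- against ALX1FV this turned to 9 higher and 24 lower without ALX1FV 0 h replicate 2, calls in either direction numbered 12 and 25 without ALX1FV ALX4- 0 h replicate 1 or 2, and for ALX1FV against WT it did not hold without ALX1FV 0 h replicate 1 or WT 0 h replicate 2.

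Scaling by library size alone, without TMM factors, moved the median of all elements by 0.14 in ALX1FV ALX4-, 0.15 in PRRX1FV and 0.14 in MSX1FNV against WT. The members called higher and lower were then 158 and 50, 65 and 7, and 73 and 8, and the share of all calls that were higher became 53.1% instead of 39.4%, 54.8% instead of 31%, and 60.4% instead of 37.2%. For members it was 76% instead of 70.1%, 90.3% instead of 76.7%, and 90.1% instead of 77.1%. In ALX1FV against WT all calls were 74.6% higher instead of 54.9%, and in ALX1FV ALX4- against ALX1FV 34.6% instead of 27.2%, with members at 84.6% instead of 81.8% and 70.6% instead of 63.8%.

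**Figure D5:**
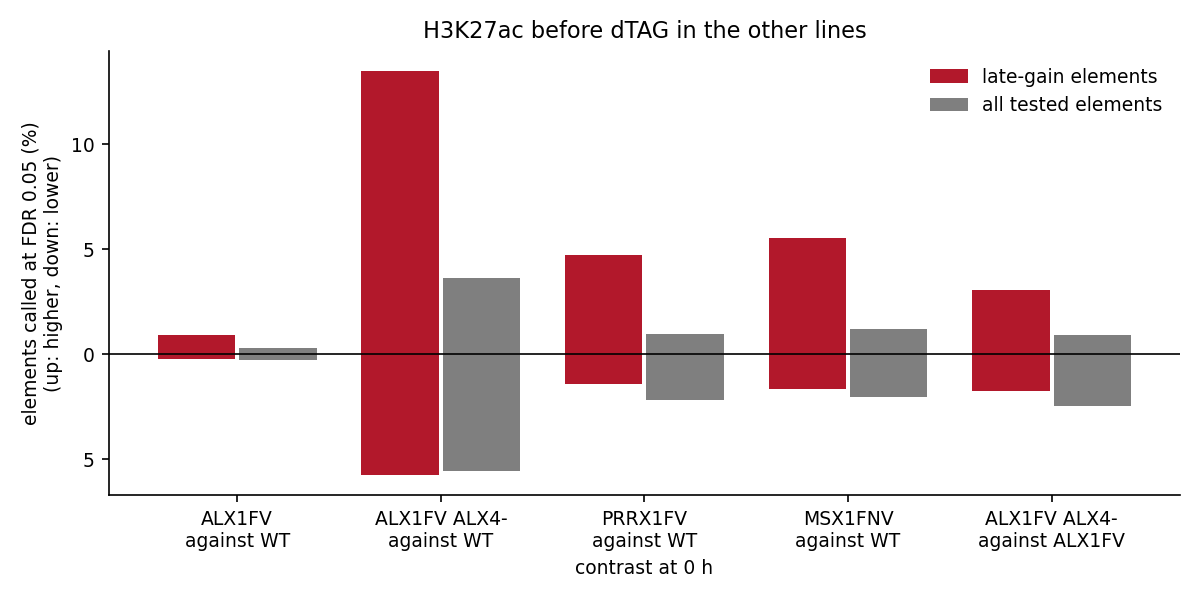
Percent of tested elements called higher (bars upward) or lower (bars downward) at 0 h by edgeR in each of 5 contrasts, for members and for all tested elements. In ALX1FV ALX4- against WT, 13.5% of members and 3.61% of all elements are higher, while 5.76% and 5.56% are lower. Distal elements at the CPM minimum are not drawn. Without a TWIST1 peak, 14.3% of them and 13.8% of members are higher, and with a peak 6.39% and 10.9%.

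The direction in the edited lines differed with TWIST1 occupancy. Of the 128 tested members with a TWIST1 peak, 14 in ALX1FV ALX4- were higher and 34 lower than in WT (10.9% and 26.6%), with a median of -0.22. Of the 845 without a peak, 117 were higher and 22 lower (13.8% and 2.60%), with a median of 0.44. Distal elements at the CPM minimum had the same order, with 6.39% higher and 31.2% lower where a TWIST1 peak was present and 14.3% and 3.83% where it was not. Against the same WT libraries, members lower in PRRX1FV were 7.03% with a peak and 0.592% without, and in MSX1FNV 7.81% and 0.71%, so this order was not limited to ALX1FV ALX4-. Of all tested elements, 7.63% with a peak and 0.443% without were lower in PRRX1FV, and 6.76% and 0.509% in MSX1FNV. For distal elements at the CPM minimum these shares were 16.5% and 1.54%, and 13.9% and 1.49%. The order was thus not particular to members.

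Large differences between lines at 0 h were sought among members only. All members gained the mark in TWIST1FV by the rule. The element chr6:113592073-113592907, 264438 bp upstream of MARCKS, which encodes an actin-binding substrate of protein kinase C, had 0.694 and 1.70 CPM in WT. It had 6.89 and 7.14 in ALX1FV, 23.8 and 20.1 in ALX1FV ALX4-, 12.1 and 16.6 in PRRX1FV and 12.6 and 20.2 in MSX1FNV, and in TWIST1FV it went from 2.73 and 3.86 at 0 h to 7.54 and 8.24 at 24 h. All edited lines were above WT there. By edgeR the log2 differences from WT were 2.51 (SE 0.40, adjusted p = 0.000316) in ALX1FV, 4.10 (SE 0.37, adjusted p = 3.79e-12) in ALX1FV ALX4-, 3.48 in PRRX1FV and 3.69 in MSX1FNV, and ALX1FV ALX4- was above ALX1FV by 1.59 (adjusted p = 0.0002). The ALX1FV call was lost without WT 0 h replicate 1 (1.99).

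The element chr2:172051438-172051938, in an intron of METAP1D and 32802 bp from the homeobox gene DLX1, had 3.24 and 5.08 CPM in WT, 13.8 and 5.49 in ALX1FV, 33 and 37.6 in ALX1FV ALX4-, 18.0 and 16.9 in PRRX1FV and 16.2 and 21.1 in MSX1FNV. ALX1FV ALX4- was above WT by 2.96 (SE 0.31, edgeR adjusted p = 4.02e-10) and above ALX1FV by 1.84 (edgeR adjusted p = 1.44e-05), while the ALX1FV libraries were far apart. An element near STC2, a secreted glycoprotein gene, starting at chr5:173291693, had 3.24 and 5.37 in WT and 45.1 and 45.0 in ALX1FV ALX4-, a log2 difference of 3.26 (SE 0.41, edgeR adjusted p = 3.91e-08). At both elements the ALX1FV ALX4- libraries were above those of WT, ALX1FV, PRRX1FV and MSX1FNV. The MBD5 element with the strongest TWIST1 peak was also higher in ALX1FV ALX4- than in WT, by 1.15 (edgeR adjusted p = 0.00719).

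In PRRX1FV and MSX1FNV the leading elements included one in an intron of TRIM5, an antiviral restriction factor gene, starting at chr11:5831387. It had 4.16 and 3.11 CPM in WT, 18.5 and 22.1 in PRRX1FV and 17.6 and 25.2 in MSX1FNV, with log2 differences of 2.32 (edgeR adjusted p = 1.32e-06) and 2.42 (edgeR adjusted p = 8.75e-07). Near ID4, an inhibitor of basic helix-loop-helix factors, the element starting at chr6:19311827 had 4.16 and 8.76 in WT and 23 and 46.9 in MSX1FNV (2.34, edgeR adjusted p = 2.46e-05). The MSX1FNV libraries lay above those of WT at both elements.

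At the TWIST1 locus the paired elements were also higher at 0 h in some edited lines. At chr7:19111712-19112212 CPM was 19 and 22.9 in WT, 40.7 and 37.1 in ALX1FV, 46.3 and 46.4 in ALX1FV ALX4-, 29.4 and 35.1 in PRRX1FV and 29.5 and 42.1 in MSX1FNV. By edgeR it was higher than WT by 1.01 in ALX1FV ALX4- (SE 0.19, adjusted p = 0.000113), under all 10 alternatives run. It was higher by 0.81 in ALX1FV (edgeR adjusted p = 0.0271, lost in 5 of 10 alternatives) and by 0.65 in MSX1FNV (edgeR adjusted p = 0.0436, lost in 3). PRRX1FV, at 0.49, was not called (edgeR adjusted p = 0.194).

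At chr7:19112233-19112733 CPM was 31.8 and 34.5 in WT, 54.0 and 60.5 in ALX1FV, 71.2 and 64.9 in ALX1FV ALX4-, 46.3 and 44.7 in PRRX1FV and 42.2 and 52.1 in MSX1FNV. By edgeR it was higher by 0.90 in ALX1FV ALX4- (adjusted p = 5.04e-05) and by 0.71 in ALX1FV (SE 0.16, adjusted p = 0.0203, lost in 4 of 10 alternatives). PRRX1FV and MSX1FNV, at 0.32 and 0.38, were not called. The neighbouring member chr7:19108347-19109270 had 77.1 and 86.4 in WT and 93.6 and 94.1 in ALX1FV ALX4- and was not called (0.06, edgeR adjusted p = 0.882).

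The elements lower at 0 h than in WT included the DACH1 start site and elements with strong TWIST1 peaks. At the DACH1 start CPM was 43.0 and 43.2 in WT, 37.1 and 35.1 in ALX1FV, 20.7 and 12.9 in ALX1FV ALX4-, 15.8 and 18.4 in PRRX1FV and 11.9 and 17.9 in MSX1FNV. By edgeR the log2 differences were -0.34 (adjusted p = 0.668) in ALX1FV, -1.49 (adjusted p = 7.3e-07) in ALX1FV ALX4-, -1.47 (adjusted p = 8.83e-06) in PRRX1FV and -1.65 (adjusted p = 1.64e-06) in MSX1FNV, and ALX1FV ALX4- differed from ALX1FV by -1.15 (adjusted p = 0.000298), a call lost without ALX1FV ALX4- 0 h replicate 2 (-0.83). The ALX1FV libraries thus lay next to WT and the other 3 lines lay below both.

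At the PLA2G4A-side element, chr1:187870768-187872065, CPM was 38.7 and 37.3 in WT, 15.1 and 6.59 in ALX1FV, 11.1 and 12.1 in ALX1FV ALX4-, 6.17 and 6.61 in PRRX1FV and 9.35 and 7.86 in MSX1FNV. All 4 edited lines were below WT, with edgeR log2 differences of -1.91 (adjusted p = 0.000121), -1.85, -2.71 (adjusted p = 2.47e-08) and -2.29 (adjusted p = 9.62e-07). At the PLD5 element WT had 61.4 and 58.0, ALX1FV 47.9 and 16.2, and ALX1FV ALX4- 8.29 and 9.62, a difference from WT of -2.88 in ALX1FV ALX4- (edgeR adjusted p = 3.62e-07) and of -1.0 in ALX1FV (edgeR adjusted p = 0.261). The ALX1FV replicates, which are different clones, were far apart there. In the TEX41 intron beside ZEB2, the element starting at chr2:144770822 had 10.8 and 7.96 in ALX1FV and 2.27 and 4.02 in ALX1FV ALX4-, a difference of -1.65 (edgeR adjusted p = 0.000573), a call lost without ALX1FV ALX4- 0 h replicate 1 (-1.32).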

How the data were processed

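H3K27ac was analysed from 6 tables of read counts deposited by the authors, 1 per line, over the same elements; the counts are whole numbers and were not normalised. Of the counts of 20 or more, 76.7% to 81.5% in a library were even, as if both reads of a pair had been counted. They were used as deposited, and if so the counting error is understated and p-values may be too small. Occupancy came from 26 peak lists, 1 per library. Each holds the authors' own values per peak, deposited as fold enrichment, -log10 of the p- and q-value and an integer score. Per the submitters' processing notes, the tools used were Bowtie2 2.4.1, SAMtools 1.10, MACS2 2.2.7.1 and deepTools 3.5.0, with no role given, and the human build is hg38 per the labels. The spike-in reads were not used here, so a change of all elements together could not be measured. The peak lists do not give their depth.

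Members were found from CPM and a pseudocount of 1. Tests used edgeR 4.0.16 in R 4.3.3 (TMM, filterByExpr, quasi-likelihood test, Benjamini-Hochberg adjustment over all tested elements, FDR 0.05), in each line alone for time and in 1 fit of 30 libraries for lines at 0 h, with DESeq2 1.42.0 as an alternative. The scripts were tested on simulated counts. Peaks overlapped by at least 1 bp (bedtools 2.31.1). Genes came from GENCODE 44 and sequences from hg38. Members and gene lists were chosen with earlier results of these data known, and the comparisons at like level, within the GC band and of distal words were chosen after seeing the data. Elements named were the largest gains, all or the strongest members of genes with most members or of each list, start sites, calls in other lines by FDR, the strongest peaks, and threshold neighbours.

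Replicate numbers name clones in ALX1FV, ALX1FV ALX4- and PRRX1FV per the labels, so they pair times within these lines. Deviations from the group means correlated across elements at 0.253 to 0.264 in ALX1FV, 0.027 to 0.037 in ALX1FV ALX4- and 0.018 to 0.021 in PRRX1FV. No column of samples was left unused. Inputs and the other samples of the series were not analysed here.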

Additional observations from a re-analysis of the deposited data

How the results depend on the processing

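The number of members followed the limits: 464 with a change at 3 h under 0.2, 1538 and 381 with a CPM minimum of 2 and 8, 170 with a gain of at least 1.5, and 869 to 1529 without 1 of the TWIST1FV libraries, 554 to 824 of them shared with the members. TMM scaling gave 759, of which 660 were shared. At 0 h, calls over all tested elements also moved in fits on the libraries of the 2 lines alone. Against WT they were 71 higher and 145 lower in ALX1FV, instead of 512 and 420 in the fit of 30 libraries. In PRRX1FV they were 3182 and 6480 instead of 1646 and 3661. For ALX1FV ALX4- against ALX1FV they were 905 and 2352 instead of 1547 and 4131. At 0 h, fits on the libraries of the 2 lines alone called 3 members in ALX1FV and 113 in PRRX1FV against WT, and 23 in ALX1FV ALX4- against ALX1FV. Without 1 library the counts ran from 2 to 16 in ALX1FV, 96 to 132 in ALX1FV ALX4-, 19 to 29 in PRRX1FV, 13 to 68 in MSX1FNV, and 12 to 36 in ALX1FV ALX4- against ALX1FV. At 24 h in ALX1FV ALX4-, DESeq2 and the fit with no filter called 0 and leaving out a library gave 0 to 1; in MSX1FNV leaving out a library gave 0 to 1. The cause of these differences was not tested.

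With the replicate as a block, higher and lower calls at 0 h over all tested elements were 574 and 537 in ALX1FV against WT, instead of 512 and 420. In ALX1FV ALX4- they were 6230 and 9524 instead of 6049 and 9305. In PRRX1FV they were 1796 and 3914 instead of 1646 and 3661, and in MSX1FNV 2151 and 3611 instead of 2012 and 3390. Counts of members called at 0 h under the block were 12, 193, 66 and 79 against WT in ALX1FV, ALX1FV ALX4-, PRRX1FV and MSX1FNV, and 51 between the 2 ALX1FV lines. MSX1FNV at 24 h had 2 calls under the replicate block instead of 0, the ZEB2-side element (edgeR adjusted p = 3.48e-05) and chr4:175423427 (edgeR adjusted p = 0.00439), chosen after its values were seen. Its samples share a number only (correlations 0.078 to 0.092, and 0.035 to 0.042 in WT). No other count of members called at FDR 0.05 moved by over 1.5 times under the block. At an unadjusted p under 0.05, MSX1FNV at 3 h went from 18 to 33 members higher and at 24 h from 25 to 39. Over all tested elements the higher ones went from 1447 to 2395 at 3 h and from 1879 to 3013 at 24 h.

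Shares over all 980 members moved with window and threshold. In windows of 100 and 250 bp to either side, TWIST1-class E-boxes were in 28.9% and 55.5%, SOX words in 39.8% and 68.0%, TCF/LEF words in 15.8% and 31.0%, and homeodomain words in 21.6% and 41.0%. Among members with a gain of at least 1.5, E-boxes were in 33.5%, TCF/LEF words in 31.8%, homeodomain words in 37.7%, start sites in 4.12% and AP2a peaks in 7.06%. Start sites within 2000 bp held 10.2%. A -log10 q of at least 20 or 5 left AP2a at 1.53% and 7.65% and TWIST1 at 3.98% and 9.90%; AP2a by both antibodies was 5.41% and by Novus alone 7.14%. TWIST1 was 21.8% in either replicate, 17.2% in replicate 1 and 17.7% in replicate 2. V5 was 0% at a -log10 q of 20, 0.102% in both replicates of a line, 0.306% in ALX1FV ALX4-, and 0% in MSX1FNV and in PRRX1FV. For single elements 32 values lost their call, 367 kept their direction and side of the threshold, and none changed sign. Some group values did turn: without ALX1FV 0 h replicate 2, ALX1FV ALX4- against ALX1FV had 9 higher and 24 lower members, and the median change of members at 24 h, near 0 throughout, ran from -0.09 to 0.07 in WT, -0.06 to 0.17 in ALX1FV, -0.07 to 0.12 in MSX1FNV and -0.01 to 0.02 in PRRX1FV.

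Weak counts limit these results: the median member had 16 and 21 counts in the TWIST1FV libraries at 0 h, and pairs of replicates differed at 3 h by as much as the limit that defines the group.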
